A study of Mus musculus with 2 samples.

Results

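The set called NKG2 and NKR-P1 lectin receptors holds 9 genes for receptors of natural killer (NK) cells: Klrc1, Klrc2, Klrd1, Klrk1, Klrb1b, Klrb1c, Klre1, Klri2 and Klrg1. They were chosen by name, as 9 of the 32285 genes counted, and all 9 were detected in both libraries. Live CD45+ leukocytes were sorted from adrenal glands of C57BL/6 mice aged 7 weeks, kept in specific pathogen-free housing, and the cells of females and of males went into separate droplet libraries, 1 per sex. No mutation, transgene or treatment is given for either group, nor how many mice each library pooled. The female library held 3693 cells after filtering (median 3491 unique molecular identifiers, UMIs, per cell) and the male library 2450 cells (median 2988), and 2 cell barcodes occurred in both libraries.

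These receptors are type II membrane proteins with a C-type lectin-like domain, and NK cells and some T cells use them to read MHC class I-like and other lectin-like molecules on neighbouring cells. CD94, the product of Klrd1, pairs with NKG2A (Klrc1), which is inhibitory, or with NKG2C (Klrc2), which is activating, and both pairs bind Qa-1, encoded by H2-T23. NKG2D (Klrk1) binds stress-induced ligands and signals through the adaptor encoded by Hcst. Klrb1c encodes the activating receptor NK1.1, and Klrb1b an inhibitory receptor for the protein made from Clec2d. Klre1 and Klri2 encode partner chains of one receptor, and Klrg1 encodes an inhibitory receptor for cadherins.

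Of the 9 genes, 8 lie within 962 kb of chromosome 6 (GRCm38, 128778485 to 129740484, GENCODE M21), and Klrg1 (ENSMUSG00000030114) lies 6.50 Mb before them on the same chromosome. All are annotated as protein coding. Promoter windows, from 250 bases before to 50 bases after an annotated start, were taken from RefSeq (GRCm38.p6), which held 9 windows for 6 of the 9 genes, all but Klrd1, Klri2 and Klrg1. The sequences are shown because NK cells were divided below by Eomes, a T-box factor, and because T-box and RUNX factors are known regulators of NK cell genes. A hexamer for each of 3 factor families was searched on both strands, and matches are in capitals: the T-box core GGTGTG, the RUNX core TGTGGT and the ETS core GGAAGT, each also as its reverse complement.

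Klrc1 (chr6:129678924-129679223, minus strand): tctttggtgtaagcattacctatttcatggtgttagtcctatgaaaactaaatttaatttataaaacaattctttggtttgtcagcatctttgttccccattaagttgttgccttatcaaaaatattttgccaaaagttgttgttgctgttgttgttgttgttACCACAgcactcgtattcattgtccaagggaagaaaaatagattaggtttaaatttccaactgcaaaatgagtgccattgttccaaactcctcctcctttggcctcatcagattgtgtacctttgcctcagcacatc
Klrc2 (chr6:129660507-129660806, minus strand): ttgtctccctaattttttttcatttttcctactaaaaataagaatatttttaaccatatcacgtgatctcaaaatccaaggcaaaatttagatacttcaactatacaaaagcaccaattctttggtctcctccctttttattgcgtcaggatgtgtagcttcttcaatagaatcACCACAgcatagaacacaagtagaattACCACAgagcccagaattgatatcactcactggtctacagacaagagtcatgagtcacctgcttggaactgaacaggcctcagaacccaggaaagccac
Klrk1 (chr6:129623815-129624114, minus strand): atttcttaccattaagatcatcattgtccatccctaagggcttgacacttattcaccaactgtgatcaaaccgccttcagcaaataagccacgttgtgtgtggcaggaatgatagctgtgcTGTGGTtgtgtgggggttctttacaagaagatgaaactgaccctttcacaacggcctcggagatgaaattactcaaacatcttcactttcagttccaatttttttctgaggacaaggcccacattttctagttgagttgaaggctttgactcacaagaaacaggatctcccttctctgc
Klrb1c (chr6:128788592-128788891, minus strand): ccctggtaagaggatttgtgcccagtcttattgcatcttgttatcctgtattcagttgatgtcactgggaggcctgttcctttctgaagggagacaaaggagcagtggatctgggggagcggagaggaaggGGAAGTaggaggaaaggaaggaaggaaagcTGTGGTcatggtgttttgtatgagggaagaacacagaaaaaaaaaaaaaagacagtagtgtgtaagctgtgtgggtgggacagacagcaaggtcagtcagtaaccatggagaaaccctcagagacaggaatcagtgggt
Klrb1b (chr6:128826259-128826558, minus strand): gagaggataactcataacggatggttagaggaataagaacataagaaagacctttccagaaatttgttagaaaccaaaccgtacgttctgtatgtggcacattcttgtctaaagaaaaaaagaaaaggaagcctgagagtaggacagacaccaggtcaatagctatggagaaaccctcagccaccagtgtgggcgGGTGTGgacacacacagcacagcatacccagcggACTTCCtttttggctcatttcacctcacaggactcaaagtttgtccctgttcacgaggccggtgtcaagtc
Klre1 (chr6:129577963-129578262, plus strand): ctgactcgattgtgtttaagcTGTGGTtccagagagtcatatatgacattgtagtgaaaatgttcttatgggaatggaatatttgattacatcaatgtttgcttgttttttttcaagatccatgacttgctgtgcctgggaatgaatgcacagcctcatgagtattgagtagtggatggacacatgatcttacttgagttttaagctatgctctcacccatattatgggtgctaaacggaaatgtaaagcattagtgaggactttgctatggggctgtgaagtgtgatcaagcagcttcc

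The RUNX hexamer stood in the windows of Klrc1, Klrc2, Klrk1, Klrb1c and Klre1 (of Klre1 only in the earlier of its 2 windows), and in 16.8% of all 32851 RefSeq windows of this length. Klrc2 held it at 2 positions, 76 and 49 bases before the start. The T-box hexamer stood only in Klrb1b, 55 bases before the start, against 19.0% of all windows, and the ETS hexamer in Klrb1b and Klrb1c, against 23.8%. These letter matches are a description of the sequences, with no test.

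Because the counts came from 3′ ends read over 55 bases, the final 500 bases of each coding transcript were compared with all other transcripts. Of the 55-base stretches, 40.5% of those of Klrc1 also occurred in Klrc2 or Klrc3, and 19.0% of those of Klrc2 in Klrc1 or Klrc3. For Klrb1b and Klrb1c, 21.4% and 16.9% were shared, with each other, Klrb1a and further gene models of the locus. Klrd1, Klrk1, Klre1 and Klrg1 shared none, and Klri2 shared 1.57%. Levels of the 2 Klrc genes and the 2 Klrb1 genes are therefore the less certain ones.

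The first comparison asked which leukocytes carried the receptors. Cells were gated by marker genes that include none of the 9, UMIs were summed per class and library and scaled to the class's total UMIs (CPM), and each CPM value carries counting error only. NK cells (830 female and 349 male) held most of the receptor UMIs: from 72.4% (Klrg1) to 94.8% (Klrb1b) of each gene's UMIs in gated female cells and from 61.0% (Klrg1) to 96.8% (Klri2) in male ones. Summed over the 9 genes, NK cells had 6675 CPM in the female and 6500 CPM in the male library, T cells 1494 and 1305 CPM, and B cells 32.6 and 17.4 CPM. UMIs were counted at 3′ ends and not scaled by length, so shares of UMIs and of cells set side by side for different genes describe detection, not relative expression.

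**Figure D1:**
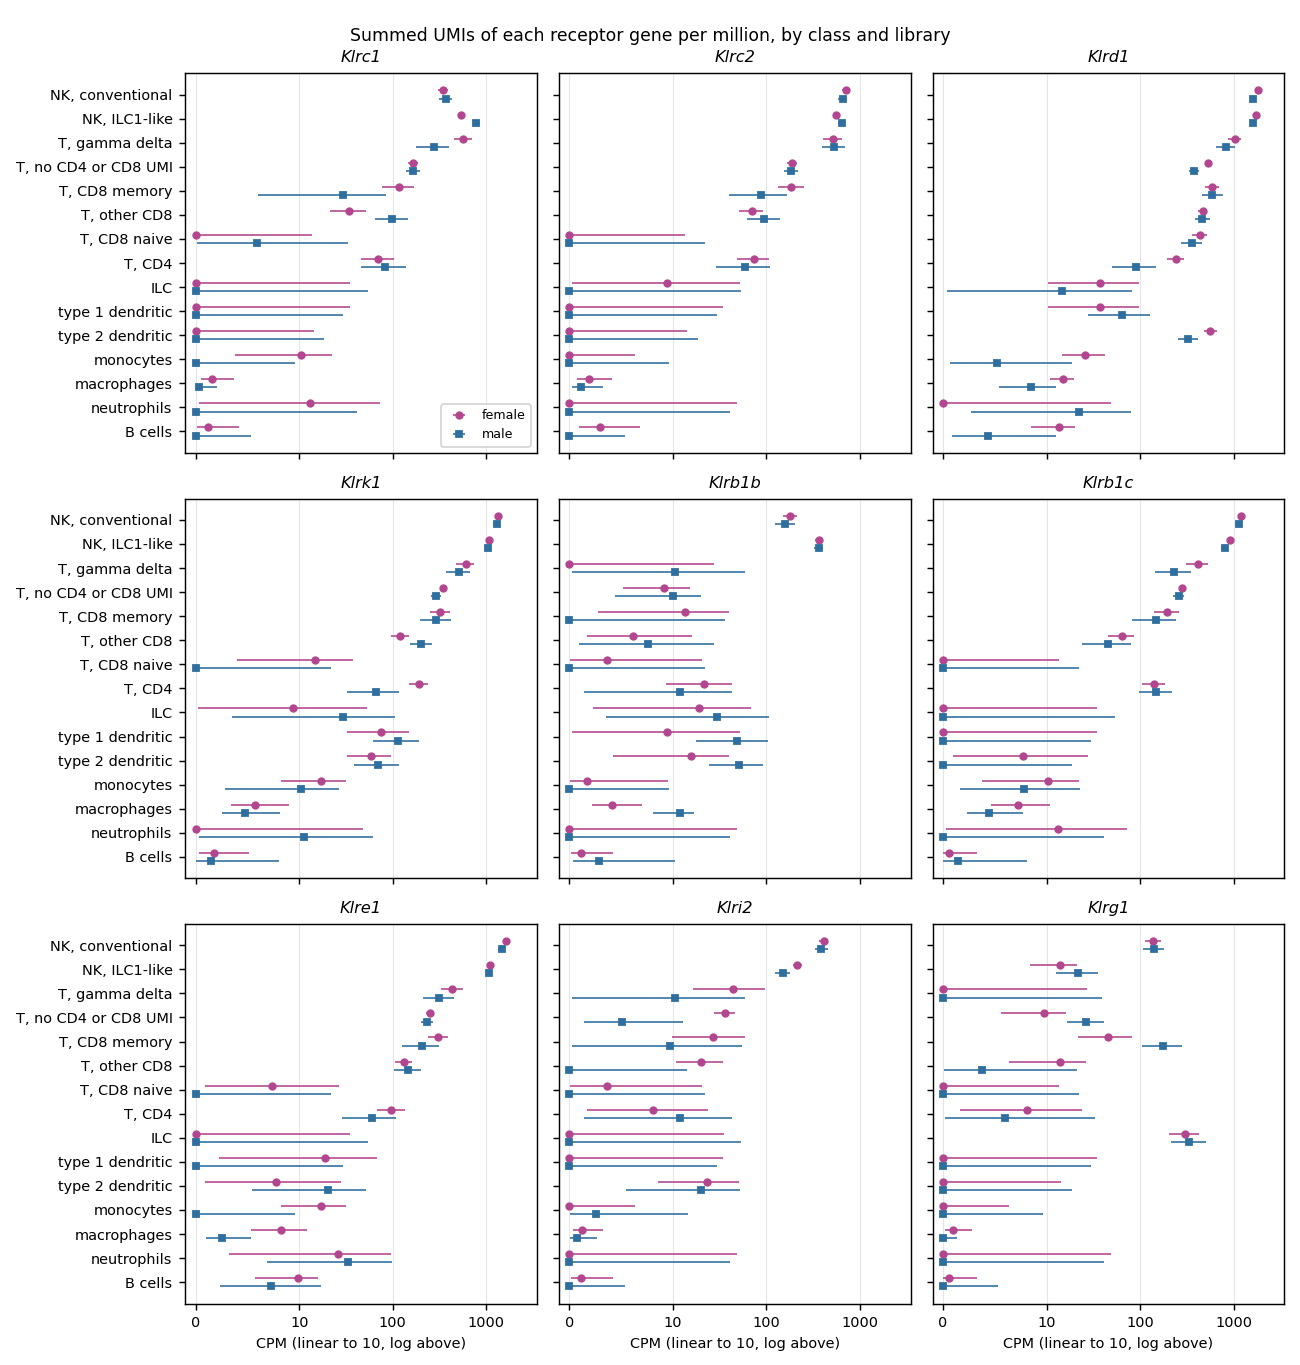
Summed UMIs of each receptor gene as CPM of a class (axis linear to 10 and logarithmic above), for 15 classes in the female (circles) and male (squares) library, with exact Poisson 95% intervals of counting error. Klrg1 is highest in ILC, at 301 and 336 CPM; within the female library Klrc1 is highest in gamma delta T cells, at 566 CPM against 537 CPM in ILC1-like NK cells, and within the male library in ILC1-like NK cells, at 786 CPM. The class labelled as T cells with no CD4 or CD8 UMI also takes in T cells with UMIs of both.

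In NK cells against T cells, all 9 receptors were higher in NK cells by edgeR's quasi-likelihood test on the summed UMIs, with library as a block and Benjamini-Hochberg adjustment over 10743 genes, of which 22.4% were called, 10.3% as higher and 12.1% as lower in NK cells. The differences in log2 fold were widest in the fit over both libraries for the NKR-P1 gene Klrb1b (4.65, SE 0.15) and for Klri2 (3.69, SE 0.13), followed by Klre1 (2.52, SE 0.09) and Klrb1c (2.14, SE 0.09). Klrb1b had 254 CPM in female and 256 CPM in male NK cells against 9.43 and 8.18 CPM in T cells. Klri2 had 290 and 244 CPM against 26.8 and 5.03 CPM. With 10 CPM added to each level, its log2 difference was 3.03 in the female and 4.08 in the male library, against 3.77 and 3.87 for Klrb1b. The added 10 CPM narrows these values, so they are not on the scale of the fitted folds. The genes of the CD94 and NKG2 group stood closer to T cells, with Klrk1 at 1.98 (SE 0.08), Klrc2 at 1.82 (SE 0.09), Klrc1 at 1.77 (SE 0.09) and Klrd1 at 1.68 (SE 0.08). Klrg1 differed least, by 1.48 (SE 0.19), with 50.6 and 54.1 CPM in NK cells against 11.6 and 25.8 CPM in T cells. Their median was 1.98, against 0.00 over all genes tested. The 2 libraries are the samples in these fits, so the p-values, of which the weakest for the 9 genes was an edgeR adjusted p of 7.0e-14 (Klrg1), rest on a spread pooled over all genes.

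Among relatives of the 9 genes, 5 of 5 tested (Klrb1, Klrb1a, Klrb1f, Klrc3 and Klri1) were also higher in NK cells. Of 6 signalling partners, the adaptor genes Tyrobp (log2 fold 3.49, SE 0.09) and Fcer1g (2.88, SE 0.09) and the phosphatase genes Inpp5d (0.38, SE 0.12) and Ptpn6 (0.27, SE 0.10) were higher in NK cells and Cd247 was lower (-0.88, SE 0.12). Hcst, which serves NKG2D, had 782 and 802 CPM in NK cells and 788 and 792 CPM in T cells (log2 fold -0.17, SE 0.08, edgeR adjusted p = 0.114). Of 12 ligand genes, 5 could be tested, and only Cdh1, which encodes the KLRG1 ligand E-cadherin, was higher in NK cells (12.3 and 13.5 against 3.34 and 3.77 CPM). H2-T23 did not pass, with 261 and 259 CPM in NK cells against 239 and 266 in T cells.

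Most NK cells carried several of the receptors at once. After each cell was thinned to 1000 UMIs, 86.1% of female NK cells (95% exact binomial interval 83.5 to 88.4%, n = 818) and 83.6% of male ones (79.2 to 87.3%, n = 347) had a UMI of at least 3 of the 9 genes. None was seen in 0.611% and 0.576% of NK cells, against 96.3% and 97.5% of B cells, the class taken as background (median 2255 and 1803 UMIs per cell, against 4084 and 4853 in NK cells). A Klrd1 UMI was present in 76.4% and 75.2% of NK cells (female and male), Klre1 in 71.5% and 68.9%, Klrk1 in 69.6% and 65.4%, and Klrb1c in 63.3% and 58.8%. Klrg1 was detected least often, in 4.77% and 6.34%. In B cells no gene exceeded 1.85%, the share for Klrd1 in the female library. Without thinning, Klrd1 was seen in 96.99% and 95.7% and Klrg1 in 14.7% and 16.3% of NK cells.

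**Figure D2:**
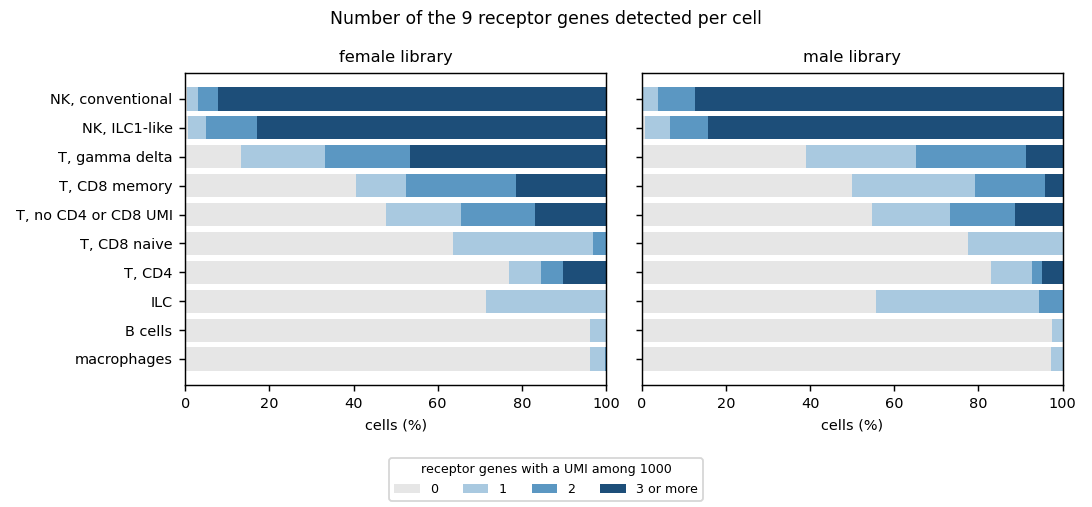
Share of cells (%) with a UMI of 0, 1, 2 or at least 3 of the 9 receptor genes after thinning each cell to 1000 UMIs, by class, in the female (left) and male (right) library. Both NK gates are mostly at 3 or more, whereas 71.4% of female and 55.6% of male ILC and over 96% of B cells have none. The class labelled as T cells with no CD4 or CD8 UMI also takes in T cells with UMIs of both.

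Whether partner chains were detected in the same NK cells was counted after thinning. Klrd1 was seen in 77.4% (72.1 to 82.1%) of female NK cells with a Klrc1 UMI and in 75.9% (72.0 to 79.5%) of those without, and in 72.8% and 76.8% of male ones. Likewise Klrc2 was seen in 45.2% of female cells with Klrc1 and in 43.6% of those without, and Klre1 in 74.4% of female cells with its partner Klri2 and in 70.7% of those without. In the male library Klre1 was seen in 77.0% (64.5 to 86.9%) of cells with Klri2 and in 67.1% (61.4 to 72.6%) of those without. For Klrc2 and Klrd1, Klrd1 was seen in 77.6% against 75.5% of female and in 80.3% (73.2 to 86.2%) against 71.1% (64.0 to 77.4%) of male cells. Within each of these pairs the 2 intervals overlapped. Klrc1 was seen in 17.9% (7.54 to 33.5%, 7 of 39 cells) of female NK cells with Klrg1 and in 35.4% (32.1 to 38.9%) of those without, but in the male library in 11 of 22 cells with it (50%) and in 38.5% of those without, the opposite order.

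The second comparison divided the NK cells. Conventional NK cells (206 female, 103 male) had a UMI of Eomes or Itga2 and none of Itga1 or Cd160, and ILC1-like NK cells (305 female, 134 male) had the reverse; 180 and 74 cells had both and 139 and 38 had neither. The division was checked on genes it did not use: all 7 conventional NK genes listed for the check (among them Prf1, S1pr5 and Klra4) were higher in conventional cells, and 6 of 7 ILC1 genes (among them Cxcr6 and Il7r) were lower. The exception was Tcf7 (log2 fold 0.79, SE 0.29, edgeR adjusted p = 0.0596). Both check lists were chosen with earlier results of these data known, so the check is not independent of the data. ILC1-like cells were deeper, with a median of 4403 and 5274 UMIs against 3480 and 4018.

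Of the 9 receptors, 5 were higher and 2 lower in conventional than in ILC1-like NK cells by edgeR, among 8851 genes tested of which 10.4% were called (4.67% higher and 5.69% lower). Klrg1, the cadherin receptor that marks mature NK cells, differed most, with 138 and 141 CPM in conventional cells against 13.7 and 21.8 CPM in ILC1-like cells (log2 fold 3.02, SE 0.23, edgeR adjusted p = 4.7e-35). The groups lay far apart in both libraries. A Klrg1 UMI was found in 12.7% and 13.7% of conventional cells after thinning and in 0.658% and 2.99% of ILC1-like cells.

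Klri2, the partner chain of Klre1, had 413 and 387 CPM in conventional cells against 213 and 150 in ILC1-like cells (log2 fold 1.06, SE 0.12, edgeR adjusted p = 9.9e-16). Klre1 itself had 1617 and 1463 against 1101 and 1065 CPM (0.47, SE 0.10, edgeR adjusted p = 3.3e-05). Both chains were thus higher in conventional cells, Klri2 by the wider margin. The activating receptor genes Klrb1c (1193 and 1132 against 919 and 801 CPM, log2 fold 0.39, SE 0.10) and Klrk1 (1347 and 1301 against 1066 and 1039 CPM, 0.29, SE 0.10) were higher by smaller steps. The calls of these last 3 genes did not hold in every alternative. Without the library block the edgeR adjusted p of each was above 0.05, and the same was so when Eomes alone was set against Itga1 alone. It was also so at a mitochondrial ceiling of 1.2%, but that left 1 ILC1-like cell in each library, too few to show whether the calls hold. Over the 11 alternatives the log2 folds lay between 0.24 and 0.75 (Klre1), 0.16 and 1.33 (Klrb1c) and 0.21 and 0.38 (Klrk1). DESeq2 did not call Klrb1c or Klrk1, and Klrk1 was called in 5 of 11 alternatives, lost also without the filter on low counts and at a 5% ceiling.

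Klrc1 and Klrb1b, both inhibitory, were lower in conventional cells. Klrc1 (NKG2A) had 344 and 371 CPM in conventional cells against 537 and 786 in ILC1-like cells (log2 fold -0.88, SE 0.11, edgeR adjusted p = 1.4e-13). Klrb1b had 178 and 158 against 365 and 361 CPM (-1.15, SE 0.13, edgeR adjusted p = 2.9e-16). The lowest ILC1-like library was above the highest conventional one for both genes. With a mitochondrial ceiling of 1.2% Klrc1 was not called. That ceiling left 7 and 4 conventional and 1 and 1 ILC1-like cells, too few to show whether the call holds. Klrg1, also inhibitory, was higher in conventional cells.

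The remaining 2 receptors did not pass the test. Klrd1, the chain shared by NKG2A and NKG2C, had 1839 and 1623 CPM in conventional and 1756 and 1623 CPM in ILC1-like cells (log2 fold -0.01, SE 0.09, edgeR adjusted p = 0.979). Klrc2 (NKG2C) had 707 and 654 against 554 and 639 CPM (0.17, SE 0.10, edgeR adjusted p = 0.401). The median over the 9 genes was 0.29, against -0.01 over all genes tested. None of the 5 relatives tested passed, Klrb1a lying at 320 and 278 against 302 and 289 CPM.

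**Figure D3:**
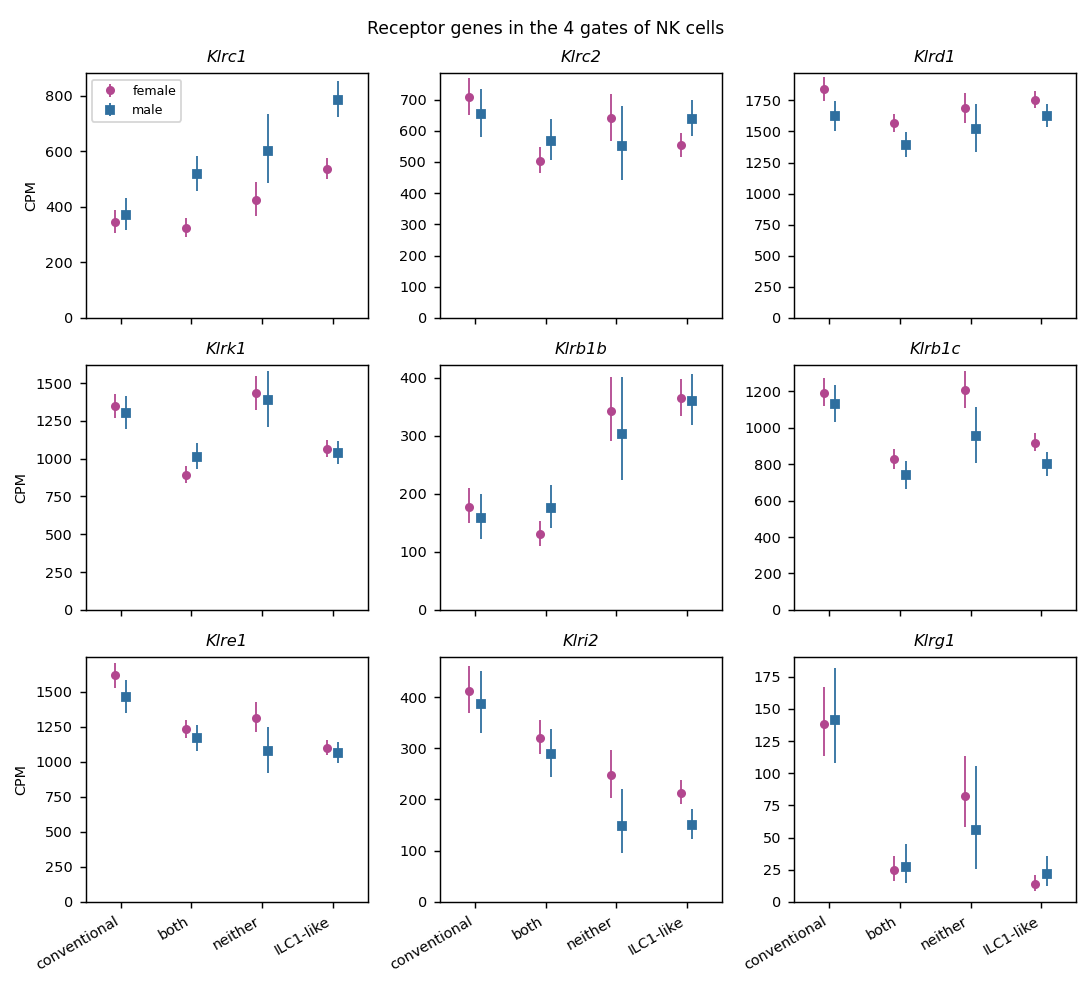
CPM of each receptor gene in the 4 gates of NK cells in the female (circles) and male (squares) library, with exact Poisson 95% intervals and axes from 0. Klrg1 and Klri2 are highest in conventional cells, and Klrb1b and Klrc1 are higher in ILC1-like than in conventional cells in both libraries.

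The signalling partners differed too. Cd247, which encodes a signalling chain of activating receptors, had 117 and 155 CPM in conventional against 33.6 and 34.0 CPM in ILC1-like cells (log2 fold 1.90, SE 0.20), and Tyrobp was higher as well (0.60, SE 0.09). Ptpn6, a phosphatase gene of inhibitory receptors, was lower (-0.44, SE 0.15). Hcst, Fcer1g and Inpp5d did not pass. Of the 5 ligand genes tested, Clec2i was lower in conventional cells (69.8 and 81.2 against 119 and 144 CPM), and Cdh1 had no UMI in conventional cells and 13.7 and 19.1 CPM in ILC1-like cells, at least 3.604-fold and 2.74-fold lower (a floor of 3 counts per library). Of the NKG2D ligand genes, Raet1e and H60c had no UMI in any gated cell, Raet1d had 7 and 0 and H60b 9 and 3. Ulbp1 had 122 and 86 UMIs in gated cells and did not pass the test, with 11.4 and 16.2 CPM in conventional against 11.0 and 16.3 CPM in ILC1-like cells.

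The third comparison followed the receptors through the T cells (695 female and 369 male). Summed over the receptors, gamma delta T cells (30 and 23 cells) came closest to NK cells of the T cell classes, at 3604 and 2696 CPM. They had Klrd1 at 1030 and 821 CPM, Klrk1 at 603 and 505 CPM and Klrc2 at 515 and 527 CPM. This did not hold for each gene, as Klrb1b had 0 and 1 UMIs there. Klrc1 had 566 CPM in the female and 274 CPM in the male gamma delta cells (77 and 26 UMIs). Klrg1 had no UMI there in either library. All 10 NK marker genes had UMIs in these cells, at 5398 and 6255 CPM summed, with Ncr1 at 147 and 211 CPM against 878 and 936 CPM in NK cells; their part in the receptor levels was not tested. The large group of T cells outside the CD8, CD4 and gamma delta gates (367 and 198 cells) had UMIs of neither Cd4 nor Cd8, or of both. Klrk1 was at 346 and 291 CPM there and Klrb1c at 283 and 257 CPM. The 10 NK markers summed to 3898 and 3746 CPM there, and their part was likewise not tested.

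CD8 T cells split by state. The 112 female and 43 male CD8 T cells outside the memory and naive gates had 926 and 1062 CPM of the receptors summed. In memory CD8 T cells (42 and 24 cells) Klrk1 had 323 and 292 CPM, Klre1 305 and 205 CPM, Klrb1c 193 and 146 CPM and Klrc2 184 and 87.7 CPM. In naive CD8 T cells (66 and 40 cells) Klrc2, Klrb1c and Klrg1 had no UMI in either library, and each of the 8 genes other than Klrd1 was at or below 14.7 CPM. Klrk1 in memory cells was 21.96-fold the naive level in the female library (8.21 to 82.8, from 72 and 4 UMIs) and at least 16.4-fold higher in the male one. These steps are counting comparisons within 1 library each. Of the 10 NK markers, 9 were higher in memory than in naive cells in each library (8771 and 6392 against 1054 and 963 CPM summed), with Ncr1 at 125 and 58.5 CPM and Gzma at 3041 and 799 CPM in memory cells; Il2rb among them also defined memory cells, and their part in the receptor levels was not tested. Klrg1 had 44.8 and 175 CPM in memory cells, but 12 of its 18 male UMIs lay in 1 cell, without which the male level was 60.4 CPM. Single male memory cells likewise held 9 of 15 Klrb1c UMIs (61.0 CPM without that cell) and 10 of 21 Klre1 UMIs (113 CPM without it).

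Klrd1 did not follow the other receptors. It had 433 and 356 CPM in naive CD8 T cells and 591 and 594 CPM in memory cells, a ratio of 1.36 (1.06 to 1.76) and 1.67 (1.15 to 2.42). In naive cells it supplied 93.7% (87.9 to 97.2%) of the receptor UMIs in the female and 98.4% (91.2 to 99.96%) in the male library, against 25.6% and 23.8% in NK cells. The NK gene Ncr1 had 2 UMIs in female and 0 in male naive cells. Of the 10 NK markers, 7 and 6 had UMIs there, among them Nkg7 at 488 and 541 CPM and Txk at 334 and 232 CPM. Their part in the Klrd1 level was not tested. Klrd1 was found in 34.8% and 22.5% of naive CD8 T cells after thinning, against 1.85% and 0.823% of B cells.

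Among CD8 against CD4 T cells, Klrd1 was higher in CD8 cells (484 and 455 against 240 and 89.2 CPM, log2 fold 1.57, SE 0.18, edgeR adjusted p = 7.3e-16) and Klrb1c was lower (73.4 and 50.6 against 140 and 149 CPM, -0.96, SE 0.26, edgeR adjusted p = 0.011), among 7601 genes of which 3.58% were called (2.45% higher and 1.13% lower). The other 7 receptors did not pass. The 10 NK markers summed to 4393 and 3378 CPM in CD8 against 1906 and 2046 CPM in CD4 cells, with Gzma at 1379 and 420 against 24.2 and 11.9 CPM. Il2rb and Xcl1 among them were lower in CD8 cells in both libraries. Their part in the receptor levels was not tested. With a mitochondrial ceiling of 5% neither call held, and 12 genes were called in all. DESeq2 did not call Klrb1c. At that ceiling the log2 folds were 1.47 (Klrd1) and -0.78 (Klrb1c). The CD4 group was small, 78 and 41 cells, and 1 male CD4 cell held 9 of 15 Klrd1 UMIs (37.1 CPM without it) and 1 held 11 of 25 Klrb1c UMIs (87.2 CPM without it).

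**Figure D4:**
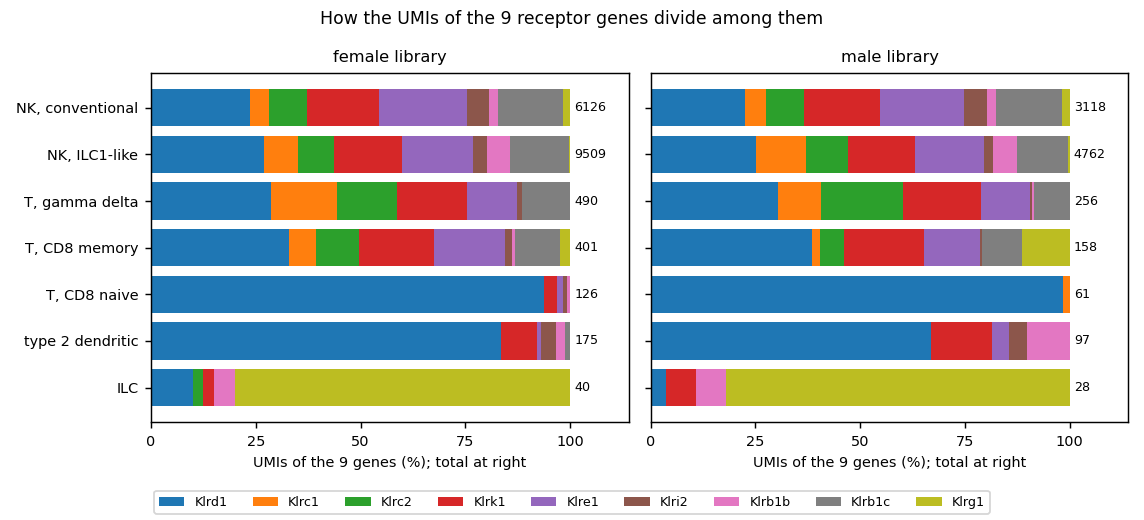
Share (%) of the UMIs of the 9 receptor genes that each gene supplied, by class, in the female (left) and male (right) library, with the total number of these UMIs at the right of each bar. Klrd1 fills most of the bar in naive CD8 T cells and type 2 dendritic cells, and Klrg1 that of ILC (80.0% and 82.1%).

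Innate lymphoid cells (ILC, 36 female and 18 male cells gated by type 2 genes such as Il1rl1 and Gata3) carried Klrg1 and little else of the set. Klrg1 had 301 CPM in the female and 336 CPM in the male ILC (32 and 23 UMIs in 17 and 12 cells) against 50.6 and 54.1 CPM in NK cells, a log2 fold of 2.40 (SE 0.34, edgeR adjusted p = 2.0e-10). After thinning, 28.6% (14.6 to 46.3%) and 33.3% (13.3 to 59.0%) of ILC had a Klrg1 UMI, whereas 0 of 486 and 0 of 243 B cells had one, which allows up to 0.617% and 1.23% (without thinning, 1 female and 0 male B cells had one). Klrg1 is known as a marker of type 2 ILC. Without the cell with the most UMIs, the ILC level was 270 and 257 CPM.

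The other 8 receptors were lower in ILC than in NK cells by edgeR, among 9829 genes of which 5.44% were called (3.61% lower and 1.83% higher). Klrc1, Klrb1c, Klre1 and Klri2 had no UMI in ILC of either library, which with a floor of 3 counts puts Klre1 at least 45.1-fold (female) and 27.1-fold (male) lower and Klrc1 at least 14.9-fold and 13.6-fold lower. DESeq2 did not call these 4 genes (adjusted p from 0.39 to 0.83). Klrc1 and Klri2 were also not called at a mitochondrial ceiling of 1.2%, which left 9 female and 1 male ILC, too few to show whether the calls hold. Klrd1 had 4 and 1 UMIs and Klrk1 1 and 2 UMIs. Klrb1b had 2 UMIs in each library, 13.5-fold (3.73 to 112) and 8.78-fold (2.42 to 72.7) below NK cells. The adaptors Tyrobp (65.8 and 43.8 against 2893 and 2844 CPM) and Fcer1g were lower as well, and Hcst was lower by a smaller step (601 and 350 against 782 and 802 CPM).

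Among myeloid cells, dendritic cells held the most receptor UMIs per UMI sequenced. Klrd1 had 564 CPM (477 to 664) in 47 female and 327 CPM (252 to 416) in 35 male type 2 dendritic cells, with a UMI in 28 and 21 of these cells and at most 21 and 14 UMIs in one. It made up 83.4% (77.1 to 88.6%) and 67.0% (56.7 to 76.2%) of the receptor UMIs there. The NK gene Ncr1 had 0 and 1 UMIs in these cells, and Klrc1 and Klrc2 had none. Of the 10 NK markers, 7 and 6 had a UMI there, at 85.0 and 50.2 CPM summed against 16457 and 15095 CPM in NK cells. Klrb1b had 15.5 and 50.2 CPM (4 and 10 UMIs) and Klri2 23.2 and 20.1 CPM (6 and 4 UMIs) in type 2 dendritic cells, against at most 2.90 and 1.16 CPM in B cells. The share of type 2 dendritic cells with a Klrd1 UMI after thinning was 34.8% and 22.9%. Plasmacytoid dendritic cells, 15 and 4 in number, had 14 and 1 Klrd1 UMIs and no UMI of the other 8 receptors.

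Klrk1 reached 75.1 and 113 CPM (8 and 14 UMIs) in type 1 dendritic cells and 58.0 and 70.3 CPM in type 2, and supplied 53.3% and 50% of the receptor UMIs in type 1 cells. Ncr1 had no UMI in type 1 cells, while 3 of the 10 NK markers had UMIs in each library, at 56.3 and 32.2 CPM summed. Macrophages (789 and 806 cells) had 45.8 and 34.2 CPM over the 9 genes together, against 32.6 and 17.4 in B cells. Klrd1 supplied 32.4% (24.9 to 40.7%) and 24.7% (16.4 to 34.8%) of these UMIs, near its share in NK cells. Klrb1b departed from that in the male library, with 32 of 93 receptor UMIs (34.4%, 24.9 to 45.0%) against 3.94% in NK cells, and with 13 of 145 (8.97%) in the female library. Its level in macrophages was low, 4.11 and 11.8 CPM.

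The design also sets female against male libraries. With 1 library per sex there is no spread between animals and no test, and intervals cover counting error only. In NK cells none of the 9 receptors passed a 1.5-fold ratio, which 4.74% of 6937 genes did. Klrc1 was lower in the female library, with 421 against 597 CPM (1614 and 1105 UMIs), a ratio of 0.704 (0.652 to 0.761), and the median ratio of all genes was 0.946. The other 8 lay between 0.936 (Klrg1, 0.731 to 1.203) and 1.19 (Klri2, 1.06 to 1.33).

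Within the gates, the Klrc1 ratio was 0.683 (0.612 to 0.762) in ILC1-like cells and 0.927 (0.760 to 1.13) in conventional cells. The difference between these ratios was not tested across animals. Klrc1 was also lower in female cells with both marker kinds (324 against 518 CPM). No receptor passed 1.5-fold in conventional cells, where 5.88% of genes did, and of the 8 receptors with at least 50 UMIs in either library none did in ILC1-like cells (7.62% of genes), Klri2 lying at 1.42 (1.14 to 1.79), or at 1.51 relative to the median ratio of all genes. When each NK cell was thinned to 1000 UMIs, the Klrc1 ratio was 0.827.

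**Figure D5:**
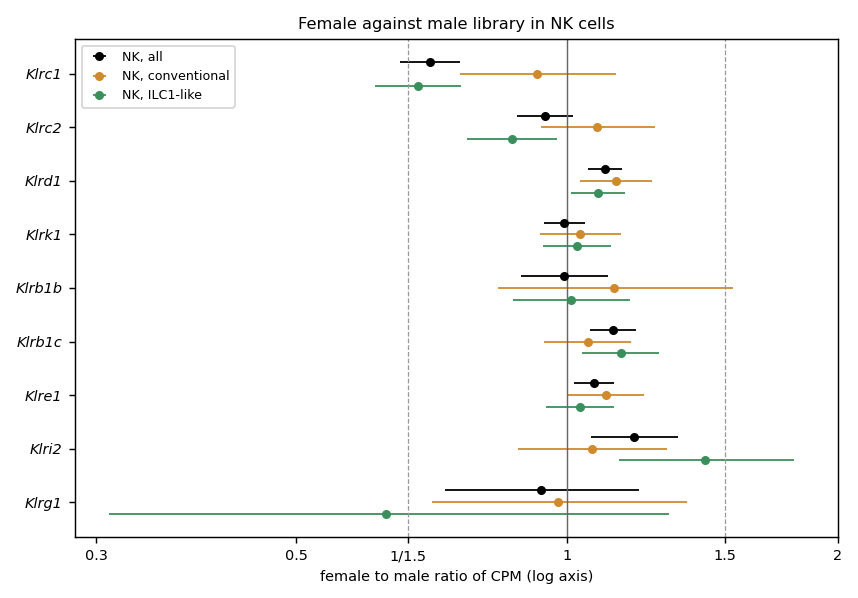
Female to male ratio of CPM (logarithmic axis) of the 9 receptor genes in all NK cells and in the conventional and ILC1-like gates, with exact conditional binomial 95% intervals of counting error. The solid line marks equal levels and the dashed lines 1.5-fold; Klrc1 is the lowest in all NK cells, at 0.704.

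In T cells, Klri2 was the 1 receptor with at least 50 UMIs in either library past 1.5-fold, where 4.94% of 6218 genes were, with 88 UMIs (26.8 CPM) in the female and 8 UMIs (5.03 CPM) in the male library, a ratio of 5.32 (2.58 to 12.7). Few cells carried it. Of the 10 NK markers, 6 were higher in female T cells (3907 against 3593 CPM summed), among them Gzma (738 against 267 CPM) and Ncr1 (61.1 against 34.0 CPM), and their part in the ratio was not tested. In the female T cells outside the CD8, CD4 and gamma delta gates, 3 cells held 29 of its 59 UMIs. The remaining receptors in T cells ranged up to 1.26 (Klrd1, 1.15 to 1.38), and Klrg1, under 50 UMIs in both libraries (38 and 41), had a ratio of 0.448 (0.280 to 0.714), with 12 of its male UMIs in 1 cell.

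Across 32 points (16 classes in 2 libraries, which share the gates and the depth of each library), the genes most like each receptor by Pearson correlation of log2(CPM + 10) among 9952 genes were often other receptors. Klrc1 was most like Klrc2 (r = 0.976), Klrk1 most like Klre1 (0.963) and Klrb1b most like Klri2 (0.902). Klrc2 and Klrb1c both ran closest to Fasl, the gene of the death ligand FasL (0.989 and 0.979), and Klre1 to Samd3 (0.972). Klrd1 stood nearest to Cd7 (0.920) and Cst7 (0.909), with no other receptor among its 3 nearest genes. Klrg1 was nearest to Bspry (0.872) and Prf1 (0.849), over points that leave out ILC, of which the male library held 18, under the minimum of 20 cells.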

How the data were processed

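The authors sequenced 3′ droplet libraries (chemistry 3.1) and deposited UMI counts per gene and barcode, made with Cell Ranger 4.0.0 on mm10 and restricted to barcodes passing DropletUtils 1.4.3, per the labels and the study's methods. The deposited matrices held 3963 female and 2685 male barcodes and 16218309 and 9512670 UMIs. Cells with at least 200 genes and at most 15% mitochondrial UMIs were kept, since the study's ceiling of 1.2% left 8.25% and 13.4% of barcodes on the scale of these matrices. The automatic Scrublet threshold marked 2 and 10 barcodes, so the highest scores at a rate of 0.8% per 1000 barcodes were removed instead (124 and 52). A cell was given a class when it held at least 3 of its markers. The share of that marker list detected also had to be at least 1.5 times the share of the next class. T cell markers took precedence over NK and ILC markers, and 87.1% and 84.2% of cells received a class. The marker scoring was set after the cells had been seen, and the 9 genes, the lists and the markers were chosen with earlier results of these data known.

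UMIs were summed per class and library and tested with edgeR 4.0.16 (quasi-likelihood, library block, TMM, at least 20 UMIs in total, Benjamini-Hochberg adjusted p threshold 0.05) in R 4.3.3, with DESeq2 1.42.0 as an alternative. Standard errors (SE) of log2 folds were derived from edgeR's fold and F statistic. The libraries are 1 female and 1 male, and the block takes out their difference in level. P-values therefore rest only on counting error and on how far the class differences disagree between the 2 libraries. Since the prior degrees of freedom were infinite, that spread is pooled over genes. Intervals are 95% exact (Poisson, Clopper-Pearson, conditional binomial) and, like floors of 3 counts, cover counting error only. Shares were compared after thinning to 1000 UMIs. A female to male ratio was read from 50 UMIs in either library. Simulated data were drawn at a fixed spread between sums (negative binomial dispersion 0.05), not at one fitted to these data. In them, the tests recovered 92% (conventional against ILC1-like NK), 93% (NK against T), 32% (ILC against NK) and 54% (CD8 against CD4 T) of 4-fold changes. For 2-fold changes the shares were 21%, 27%, 2% and 0%. These shares hold for that spread and do not give the power of the tests on these data.

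Named genes were all 9 receptors, the listed relatives, signalling partners and ligands, and for each receptor the 3 genes of highest correlation with at least 100 UMIs, over classes of at least 20 cells in each library. Alternatives tried were DESeq2, no scaling factors, no filter on low counts, no library block, other mitochondrial ceilings, no doublet removal, classes from clusters and other splits of NK cells. At least 2 markers per class, and leaving out the 5 top cells of a gene, were added after seeing the data. Computation used Python 3.11.15, scanpy 1.11.5 and scipy 1.17.1.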

Additional observations from a re-analysis of the deposited data

Results flagged for a closer look

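For 2 receptors the difference between CD8 and CD4 T cells had opposite signs in the female and male libraries. These differences were taken after adding 10 CPM to each level, which narrows them for low levels. Klri2 differed by a log2 of 0.60 in the female library and by -0.88 in the male one. Its levels were 17.5 against 8.07 CPM on 20 and 3 UMIs (female CD8 and CD4) and 1.87 against 11.9 CPM on 1 and 2 UMIs (male). Klrk1 differed by -0.48 in the female library (154 and 71 UMIs) and by 1.13 in the male one (83 and 11 UMIs), where 1 of 41 CD4 cells held 9 of the 11 UMIs (65.4 CPM with it and 12.4 CPM without). The difference between the libraries was not tested.

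Cells that received no class (478 female and 386 male) lay outside the comparisons and held 645 CPM of the 9 receptors summed in the female library and 324 CPM in the male one, above the 32.6 and 17.4 CPM of B cells. Klrd1 had 192 and 86.7 CPM in them and Klrk1 125 and 76.5 CPM.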

How the results depend on the processing

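The call of all 9 receptors as higher in NK than T cells held in every setting in which they could be tested, as did Klrg1, Klri2 and Klrb1b in conventional against ILC1-like NK cells and Klrg1 in ILC against NK cells. Counts of called genes moved more. For conventional against ILC1-like NK cells (917) they were 169 with DESeq2, 456 without the library block, 583 with a 5% mitochondrial ceiling, 3 with a 1.2% ceiling and 1420 with classes from clusters. NK against T cells (2410) gave 643 with DESeq2 and 164 at 1.2%. ILC against NK cells (535) gave 170 with DESeq2, 30 at 1.2% and 968 from clusters. CD8 against CD4 T cells (272) gave 55 with DESeq2, 12 at 5% and 0 at 1.2%. Genes past 1.5-fold between the sexes in NK cells (329 of 6937) numbered 31 of 130 at 1.2%, 168 of 2440 after thinning and 477 of 6937 without the 5 top cells of each gene. The median ratio of the 9 receptors (0.993) was 0.913 at 1.2%, from 11 female and 6 male NK cells. There only Klrd1, Klrb1c and Klre1 had the 50 UMIs in either library from which a ratio is read, so this median is not read as a shift. The median share of NK cells with a UMI of a receptor (44.7%) was 26.3% at 500 UMIs, 65.1% at 2000 UMIs and 85.0% without thinning. The sign turned for some values that had not passed the test: Klrd1 in conventional against ILC1-like cells was 0.0025 with DESeq2, 0.036 without scaling factors, 0.16 at 1.2% and 0.0087 without doublet removal, Klrc2 there was -0.30 at 1.2%, and in CD8 against CD4 T cells Klri2 was -0.30 with DESeq2 and Klrk1 -0.029 without scaling factors. The female to male ratios of Klrd1 and Klre1 were 0.993 and 0.996 at 1.2%. The cause of these shifts was not tested, beyond the fewer cells that stricter ceilings leave. The 1.2% ceiling left 11 and 6 NK cells, with 1 ILC1-like cell in each library. Lost calls or turned signs there do not show whether a result holds. The Klrc1 ratio lay between 0.675 (at least 2 markers per class) and 0.827 (after thinning) where at least 50 UMIs were counted. At 1.2% it was 0.525 (0.233 to 1.17), on 13 and 16 UMIs, too few to be read by that rule. With 1 library per sex, animals could not be compared, and ILC and CD4 T cells were few.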
